A study of Mus musculus with 8 samples.

Results

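Agps knockout cells were compared with parental cells after both had received TGF-β. The comparison used the 2 libraries labelled as Agps knockout with TGF-β and the 2 labelled as wild-type parental with TGF-β, which are 4 of the 8 libraries of the series, and it was read across all 14641 genes that passed a filter on low counts. Both lines are PyMT-1099 cells, a mouse breast cancer line, and both had TGF-β at 2 ng/ml for 10 days in high-glucose medium with serum. The other 4 libraries are the same lines untreated, 2 per line. They were fitted together with the first 4, so they share in the filter, the scaling and the estimate of spread behind every p-value. They also served to mark stretches of the genome described below. Their own knockout difference is given only beside the difference with TGF-β. The sources used here do not give how Agps was disrupted or whether the knockout cells are 1 clone. Nor do the labels say that the numbered libraries of a group are separate cultures. The p-values therefore measure the spread between libraries, and that spread may be technical.

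Agps encodes the peroxisomal enzyme that forms the ether bond of ether lipids. Gnpat, its partner in the same complex, makes the substrate, Far1 supplies the fatty alcohol, and later enzymes turn the product into plasmalogens and other ether phospholipids. TGF-β binds Tgfbr2, which activates Tgfbr1 and through it the SMAD factors. In mammary epithelial cells a long exposure is known to drive an epithelial to mesenchymal transition (EMT), in which cells lower E-cadherin and keratins, gain fibronectin and N-cadherin, and build contractile actin fibres.

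Agps, the disrupted gene, was read first. Its level was 265 and 266 CPM (counts rescaled to a common library total, after TMM scaling) in the 2 parental libraries and 43.9 and 35.6 CPM in the 2 knockout libraries (log2 fold change -2.74, SE 0.11, edgeR adjusted p 2.62e-07). Agps RNA was therefore low but present in the knockout cells with TGF-β, and the libraries matched their labels. The 4 libraries held 17103804 to 20066517 counts, and the 2 libraries of a group correlated across genes at 0.994 (parental) and 0.993 (knockout) on the log2 scale. Mitochondrially encoded genes took 4.31% and 3.80% of the counts in the parental libraries and 3.96% and 2.36% in the knockout libraries, so the second knockout library stood apart. The keratins Krt8 and Krt18 of simple epithelia were high in all 4 libraries, at 782 and 844 CPM (Krt8) and 1885 and 1969 CPM (Krt18) in parental cells. Of the other mammary epithelial markers, Krt14 had 98 and 84 counts in parental and 219 and 164 in knockout libraries. Elf3 had 413 and 367 against 257 and 278 counts, so both were present in both lines. Epcam, an epithelial surface protein, had 0 counts in all 4 libraries, and Krt5 had 5 to 9 counts per library. Esrp1, an epithelial splicing factor, had a single count in 1 knockout library, so Epcam and Esrp1 were at or near 0 in both lines with TGF-β. A count of 0 allows up to 3 counts in a library, and this covers counting error only.

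With TGF-β, 2618 of 14641 genes (17.9%) differed between the lines at an edgeR adjusted p under 0.05, and such genes are called here. Of these 998 were higher in the knockout cells (6.82% of the genes tested) and 1620 were lower (11.1%). The change was at least 1 on the log2 scale for 310 of the higher and 610 of the lower genes, and the median log2 fold change of all genes was 0.01. Fewer genes were called when any 1 of the 4 libraries was left out: 1169 without parental replicate 1, 1318 without parental replicate 2, 1591 without knockout replicate 1 and 1368 without knockout replicate 2. Of these 1157, 1302, 1494 and 1322 were also among the 2618. Of the 203 genes named by rule 186 were called, and in all 186 the libraries of the lines did not overlap. Where such a separation is described below, it adds no support for a gene beyond its call. Counts and fold changes describe a whole culture, in which fewer cells of a kind and less RNA per cell cannot be told apart.

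**Figure D1:**
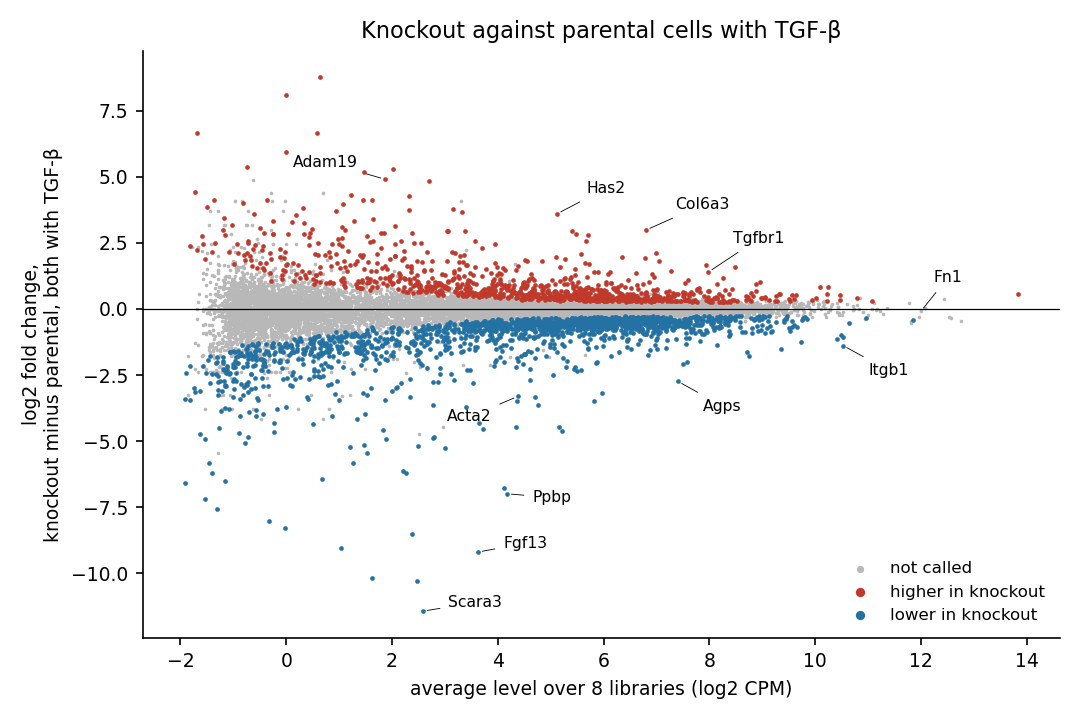
Each point is 1 of the 14641 genes, with its average level over the 8 libraries (log2 CPM) on the horizontal axis and its log2 fold change, knockout minus parental with TGF-β, on the vertical axis. The 998 genes called higher are red and the 1620 called lower are blue. Agps lies at -2.74, Col6a3 at 2.98, Itgb1 at -1.39 and Fn1, not called, at -0.09.

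Position in the genome went with the direction of the difference on 3 chromosomes. On chromosome 8, 388 of 810 tested genes were called lower and 8 higher, and the median log2 fold change was -0.47 with TGF-β and -0.46 without it. On chromosome 3, 232 of 764 genes were called lower and 7 higher, with medians of -0.30 and -0.28. On chromosome X, 140 neighbouring tested genes between 5699727 and 56365674 (GRCm38) had a median of -0.67 in both conditions, and 80 of them were called lower. The medians of the other chromosomes lay between -0.06 (chromosome 13) and 0.09 (chromosome 1) with TGF-β.

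Runs of genes that stood apart were marked from the untreated libraries alone, as stretches in which the median over 41 neighbouring tested genes lay more than 0.3 from the median of all genes. They held 1285 genes, of which 696 were on chromosome 8, 354 on chromosome 3, 140 on chromosome X and the rest on chromosomes 5, 15 and 19. With TGF-β, libraries that had not been used to mark them, 564 of these 1285 genes were called lower and 24 higher, with a median of -0.42. Among the 13356 genes outside them, 974 were called higher and 1056 lower, with a median of 0.03. DNA copy number was not measured. Below, a gene inside a marked run is named as such, and the count of a gene list is also given without such genes where 2 or more of its called members lie in them.

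**Figure D2:**
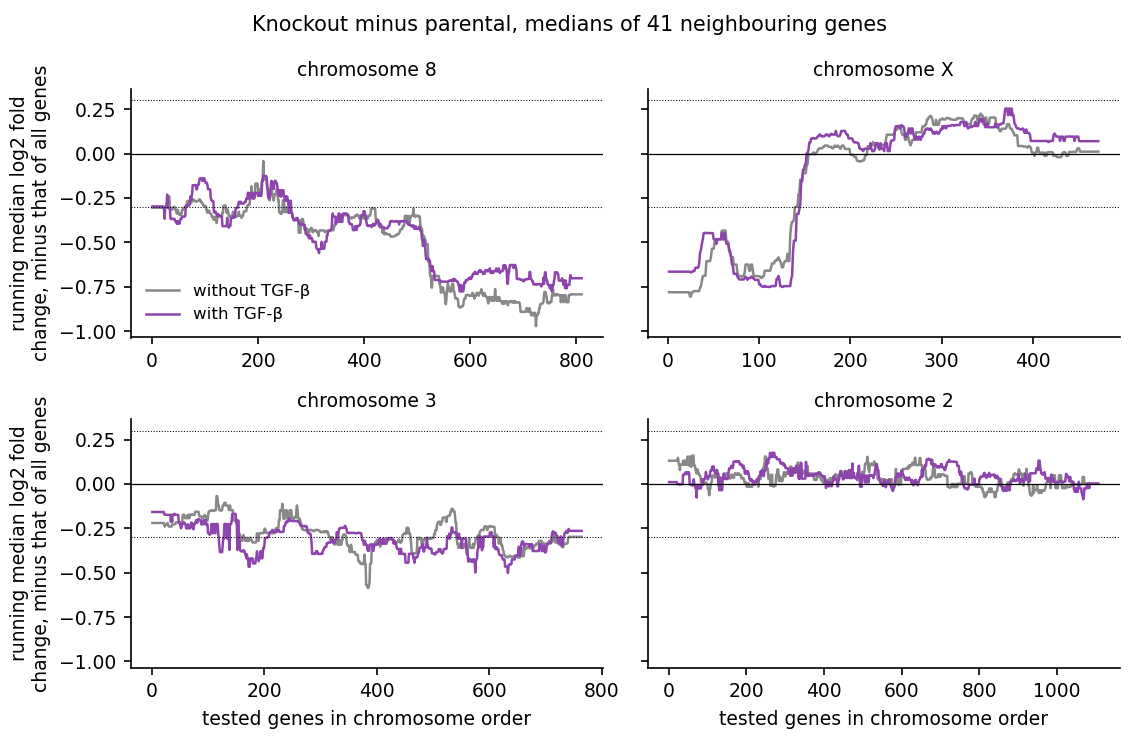
Running medians over 41 neighbouring tested genes of the log2 fold change, knockout minus parental, less the median of all genes, along 4 chromosomes, with TGF-β (purple) and without it (grey). Dotted lines mark 0.3 in either direction. Both lines run below 0 along chromosome 8 and the first part of chromosome X and more shallowly along chromosome 3, and stay near 0 on chromosome 2.

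Genes of the contractile actin cytoskeleton were lower in the knockout cells. Of 20 tested members of this list 13 were called lower and 0 higher, with a median log2 fold change of -0.52 against 0.01 over all genes, of which 11.1% were called lower. Outside the marked runs 11 of 18 were lower, with a median of -0.45. Leaving out 1 of the 4 libraries left 8 to 10 members lower, with the lowest count without parental replicate 1, and none was called higher in any of these fits. Without TGF-β, 2 members were called lower and the median was -0.16. The difference between the conditions was called for 3 of the 20 members, all negative, and was not shown for the others.

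Acta2, the smooth muscle actin that marks myofibroblasts, had 73.9 and 76.6 CPM in the parental libraries and 10.1 and 5.04 CPM in the knockout libraries (log2 fold change -3.31, SE 0.24, edgeR adjusted p 6.21e-06). Actg2, the smooth muscle gamma actin, had 10.7 and 9.59 CPM against 2.68 and 1.33 CPM (log2 fold change -2.32, SE 0.30, edgeR adjusted p 0.000368). Cnn1, the actin-binding calponin of smooth muscle, fell from 14.4 and 14.2 CPM in parental to 5.16 and 4.10 CPM in knockout cells (log2 fold change -1.62, SE 0.17, edgeR adjusted p 0.000108). In each of these genes both knockout libraries lay below both parental ones. Tagln, which encodes transgelin, had 247 and 221 CPM against 96.5 and 56.7 CPM (log2 fold change -1.61, SE 0.19, edgeR adjusted p 0.000181), but 67.9% of its exonic length overlaps a gene on the opposite strand, and no source used here states whether counting kept strand.

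Other members with calls fell by less than Acta2. Tpm1, a tropomyosin that coats actin filaments, had 2948 and 3044 CPM against 1534 and 1357 CPM (log2 fold change -1.05, SE 0.10, edgeR adjusted p 5.89e-05), and Cnn2, a calponin of non-muscle cells, 298 and 298 CPM against 211 and 204 CPM (log2 fold change -0.52, SE 0.08, edgeR adjusted p 0.000976). Tpm4, another tropomyosin, fell by 0.68 on the log2 scale (edgeR adjusted p 0.000265) and lies in a marked run of chromosome 8. Srf, the transcription factor that binds many promoters of this list, had 55.4 and 50.5 CPM in parental and 36.7 and 36.7 CPM in knockout cells (log2 fold change -0.53, SE 0.10, edgeR adjusted p 0.00328). Its call was lost without parental replicate 1 (edgeR adjusted p 0.0567). Vcl, the focal adhesion protein vinculin, was at -0.51 (edgeR adjusted p 0.00612), and without parental or without knockout replicate 1 the call was lost (up to 0.0678 by edgeR). Flna, Myh9, Mylk and Cald1, encoding filamin A, non-muscle myosin, myosin light chain kinase and caldesmon, were not called, with log2 fold changes of -0.20, 0.05, -0.33 and -0.25.

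**Figure D3:**
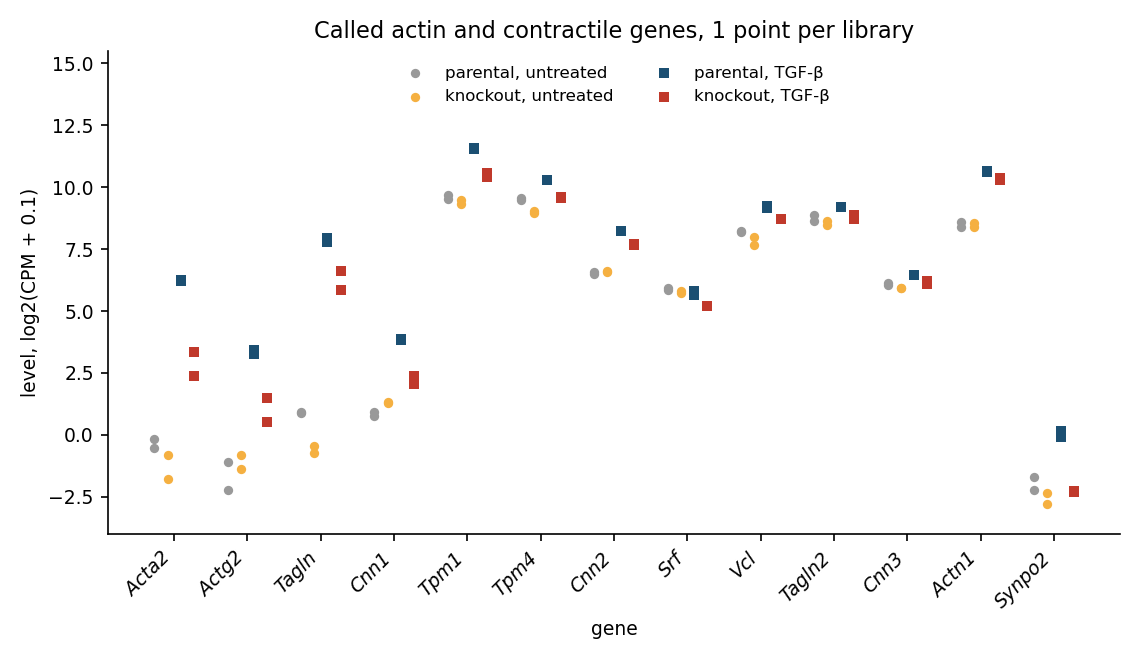
Levels of the 13 called contractile genes, as log2(CPM + 0.1), with 1 point per library. Blue squares are parental and red squares knockout libraries with TGF-β; grey and orange circles are the untreated libraries. The red squares lie below the blue ones for all 13 genes, by -3.31 for Acta2 and -0.29 for Cnn3 on the log2 scale of the fit.

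The promoters of this group are shown because their best known shared element, the CArG box bound by serum response factor, can be read in the RefSeq windows (GRCm38.p6) that run from 250 bases before to 50 after a gene's start. The box reads the same on both strands. It was found in 535 of all 32851 windows (1.63%). Of the 20 tested members 17 had an entry, with 19 windows, and 3 of these windows held a box, those of Srf, Cnn2 and Vcl. The 250 bases before the start are printed 5′ to 3′ on the gene's strand, with each box in capitals.
Srf (chr17:46556163-46556412, minus strand): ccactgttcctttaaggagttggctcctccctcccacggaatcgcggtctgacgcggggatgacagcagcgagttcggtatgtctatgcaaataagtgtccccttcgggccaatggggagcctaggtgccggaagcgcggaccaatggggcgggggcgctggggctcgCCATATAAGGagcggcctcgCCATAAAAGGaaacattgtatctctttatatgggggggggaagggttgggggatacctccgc
Cnn2 (chr10:79988350-79988599, plus strand): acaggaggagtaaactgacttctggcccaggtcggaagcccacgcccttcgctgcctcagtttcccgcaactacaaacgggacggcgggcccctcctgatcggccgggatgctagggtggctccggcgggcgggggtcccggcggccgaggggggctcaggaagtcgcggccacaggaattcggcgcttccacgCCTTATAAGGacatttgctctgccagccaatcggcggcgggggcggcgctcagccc
Vcl (chr14:20929148-20929397, plus strand): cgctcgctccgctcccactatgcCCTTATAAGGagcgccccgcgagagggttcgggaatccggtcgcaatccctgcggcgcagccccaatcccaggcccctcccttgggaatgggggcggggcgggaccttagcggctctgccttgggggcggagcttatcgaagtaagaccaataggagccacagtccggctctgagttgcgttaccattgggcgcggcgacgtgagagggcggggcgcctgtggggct
Srf carried 2 boxes that begin 82 and 62 bases before its start, Cnn2 1 box at 56 bases and Vcl 1 box at 227 bases. All 3 genes were called lower with TGF-β, with log2 fold changes of -0.53, -0.52 and -0.51. Of the 17 members with an entry 11 were called, all lower, most of them without a box. A relation between the box and the fall was not tested. The windows of Acta2, Cnn1 and Tpm1 held no match, which says only that these letters are not in those windows, and Tagln, Actg2 and Myl9 had no entry by that name.

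In the TGF-β pathway the receptors moved in opposite directions. Of 44 tested genes of the TGF-β response and its feedback, 4 were called higher and 10 lower, with a median of -0.03. Of the lower ones 8 lay outside the marked runs. Over all genes 6.82% were called higher and 11.1% lower. Without TGF-β 3 members were higher and 10 lower (median -0.14). Tgfbr1, the type I receptor, rose from 178 and 208 CPM in parental to 533 and 484 CPM in knockout cells (log2 fold change 1.40, SE 0.09, edgeR adjusted p 4.57e-06). Tgfbr2, the type II receptor that binds the ligand, fell from 128 and 136 CPM to 92.4 and 94.5 CPM (log2 fold change -0.50, SE 0.09, edgeR adjusted p 0.00233). For both receptors the libraries of the lines did not overlap. The Tgfbr1 difference was larger with TGF-β than without it, where it was 0.18 (difference 1.22, edgeR adjusted p 0.000979).

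A secreted member of the TGF-β family and its antagonist were lower in the knockout cells. Inhba, the activin A subunit, had 66.99 and 61.5 CPM against 22.6 and 17.3 CPM (log2 fold change -1.68, SE 0.21, edgeR adjusted p 0.000313). Fst, the activin antagonist follistatin, had 39.1 and 37.7 CPM against 13.4 and 16.4 CPM (log2 fold change -1.37, SE 0.19, edgeR adjusted p 0.000649). In both genes each knockout library lay below each parental one. Id2, an inhibitor of differentiation factors, fell by 1.11 (edgeR adjusted p 0.000408), and the matricellular gene Ccn1, in a marked run of chromosome 3, by 1.14 (edgeR adjusted p 3.78e-05). Il11, a cytokine induced by TGF-β, had 222 and 189.8 CPM against 289 and 281 CPM (log2 fold change 0.47, SE 0.09, edgeR adjusted p 0.00491), a call lost without parental replicate 2 (edgeR adjusted p 0.0837).

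Smad7, the inhibitory SMAD, was not called, at -0.05 (SE 0.48), with a standard error too wide to place it. A p above the threshold does not show that the lines were equal.

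Regulators and markers of EMT did not move as a block. Of 15 tested EMT transcription factors 3 were higher and 0 lower (median 0.07). Over all genes 17.9% were called, 6.82% higher and 11.1% lower, so these factors were called about as often as all genes. The few calls do not show a shift of the regulators as a set. Hmga2, an architectural chromatin protein linked to TGF-β-driven EMT, rose from 100.003 and 96.2 CPM in parental to 290.2 and 217 CPM in knockout cells (log2 fold change 1.37, SE 0.12, edgeR adjusted p 3.24e-05). Snai1, a repressor of E-cadherin, had 9.22 and 9.65 CPM against 15.6 and 18.01 CPM, with an edgeR adjusted p of 0.0438 that rose above 0.05 when any 1 of the 4 libraries was left out (up to 0.238). The repressors Zeb1 and Zeb2 were at -0.13 (SE 0.10) and -0.04 (SE 0.14) and were not called.

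Among 24 mesenchymal markers 4 were higher and 5 lower, against 6.82% and 11.1% of all genes. Outside the marked runs the counts were 3 and 4 of 21. Lrp1, an endocytic receptor, rose from 296 and 280.3 CPM to 633 and 665 CPM (log2 fold change 1.17, SE 0.09, edgeR adjusted p 1.34e-05), and Mmp2, a gelatinase in a marked run of chromosome 8 whose genes were mostly lower, from 2.81 and 3.04 CPM to 9.76 and 9.76 CPM (log2 fold change 1.74, SE 0.23, edgeR adjusted p 0.000394). Cdh2, which encodes N-cadherin, fell from 519 and 563 CPM to 392.3 and 358 CPM (log2 fold change -0.53, SE 0.09, edgeR adjusted p 0.00229), and Postn, the matrix protein periostin, from 65.03 and 97.4 CPM to 12.03 and 22.005 CPM (log2 fold change -2.26, SE 0.26, edgeR adjusted p 0.000182). S100a4 was at -1.98 (edgeR adjusted p 0.000201), but 47.4% of its 50-base words are shared with another gene and it lies in a marked run of chromosome 3, so its count is uncertain. The intermediate filament gene Vim, the matrix gene Fn1 and the hyaluronan receptor Cd44 were not called, at -0.10 (SE 0.10), -0.09 (SE 0.10) and 0.06 (SE 0.12).

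Of 32 tested epithelial markers 11 were lower and 5 higher, against 11.1% and 6.82% of all genes, with a median of -0.20. Outside the marked runs the counts were 7 and 5 of 27, and with 1 of the 4 libraries left out 5 to 7 members were lower and 2 to 4 higher. Cdh1, the E-cadherin gene, had 128 and 139.9 CPM in parental and 52.3 and 52.4 CPM in knockout cells (log2 fold change -1.35, SE 0.11, edgeR adjusted p 1.4e-05), and it lies in a marked run of chromosome 8 and was also lower without TGF-β (-1.09). Krt7 fell from 238 and 254 CPM to 81.1 and 93.0 CPM (log2 fold change -1.498, SE 0.11, edgeR adjusted p 6.21e-06) and Krt19 from 330.1 and 374 CPM to 139 and 159 CPM (log2 fold change -1.24, SE 0.12, edgeR adjusted p 4.25e-05). These are keratins of simple epithelia, as are Krt8 and Krt18, which were not called, at 0.13 (SE 0.10) and 0.22 (SE 0.09). Pkp1, a desmosome protein, fell by 1.67 (edgeR adjusted p 6.72e-05). The tight junction genes Ocln and F11r rose, by 1.497 (SE 0.22) and 0.49 (SE 0.08) on the log2 scale (edgeR adjusted p 0.000866 and 0.00174).

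Nearly as many matrix genes rose as fell, while over all genes 6.82% were called higher and 11.1% lower. Of 40 tested collagens and basement membrane genes 9 were higher and 10 lower (8 of them outside the marked runs), with a median of 0.05, and with 1 library left out 3 to 6 were higher and 6 to 7 lower. Col6a3, a chain of the microfibrillar collagen VI, rose from 42.2 and 57.7 CPM in parental to 339 and 451 CPM in knockout cells (log2 fold change 2.98, SE 0.16, edgeR adjusted p 1.01e-06), and the lowest knockout library was several times the highest parental one. P4ha2, a collagen prolyl hydroxylase, was at 0.82 (SE 0.10) (edgeR adjusted p 0.000246), and Col5a1, of the fibrillar collagen V, at 1.04 (SE 0.15) (edgeR adjusted p 0.000688). Loxl1, which cross-links elastic fibres, fell from 18.2 and 15.01 CPM to 5.76 and 4.27 CPM (log2 fold change -1.72, SE 0.19, edgeR adjusted p 0.000144). Col1a1, the main fibrillar collagen, was at -0.46 (SE 0.10) (edgeR adjusted p 0.00716), but without parental replicate 1 or knockout replicate 1 the call was lost (up to 0.105).

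The collagen IV genes, which form the network of basement membranes, come in head-to-head pairs, and every called one was lower with TGF-β. Col4a3 had 172 and 182 CPM in the parental libraries and 47.6 and 37.6 CPM in the knockout libraries (log2 fold change -2.05, SE 0.13, edgeR adjusted p 3.05e-06). Col4a4 had 88.0 and 88.6 CPM and 31.5 and 25.4 CPM (log2 fold change -1.63, SE 0.13, edgeR adjusted p 1.43e-05). Both genes were higher in the knockout cells when untreated, at 0.84 (edgeR adjusted p 0.00759) and 0.91 (edgeR adjusted p 0.00233), so the direction of the knockout difference was opposite in the presence of TGF-β. The test of that difference gave -2.89 (SE 0.21, edgeR adjusted p 0.000134) for Col4a3 and -2.55 (SE 0.20, edgeR adjusted p 0.000134) for Col4a4. Untreated levels were low, 5.01 and 4.803 CPM in parental and 9.80 and 7.75 CPM in knockout cells for Col4a3. Col4a1 and Col4a2, the other called pair, both in a marked run of chromosome 8, were at -0.85 (SE 0.09) and -0.58 (SE 0.08) with TGF-β and at -0.82 and -0.40 without it. Col4a5, on chromosome X outside the marked run, was at -0.64 (SE 0.13) (edgeR adjusted p 0.0056), a call lost without parental replicate 2 or knockout replicate 2 (up to 0.0718).

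Col4a3 and Col4a4 are shown with the stretch that separates them, since they moved together in both conditions and start within 72 bases of each other on opposite strands of chromosome 1 (Col4a3 plus strand, chr1:82586921-82722059; Col4a4 minus strand, chr1:82448423-82586849). The 71 bases between the annotated starts are printed 5′ to 3′ on the strand of Col4a4, with nothing in capitals because no motif was searched beyond the CArG box, which they do not hold.
Between Col4a4 and Col4a3 (chr1:82586850-82586920, minus strand): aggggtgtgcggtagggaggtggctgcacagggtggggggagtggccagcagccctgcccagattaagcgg

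Hyaluronan synthesis and matrix proteases held some of the largest rises. Has2, a hyaluronan synthase, went from 10.7 and 10.4 CPM in parental to 139 and 116.7 CPM in knockout cells (log2 fold change 3.60, SE 0.17, edgeR adjusted p 4.44e-07). Of 25 tested proteases and inhibitors 7 were higher and 7 lower, against 6.82% and 11.1% of all genes. Outside the marked runs 6 were higher and 4 lower of 20. The collagenase Mmp13 rose from 2.17 and 2.68 CPM to 17.3 and 20.6 CPM (log2 fold change 2.96, SE 0.33, edgeR adjusted p 0.000139) and the stromelysin Mmp10 from 8.69 and 10.3 CPM to 31.1 and 19.7 CPM (log2 fold change 1.42, SE 0.23, edgeR adjusted p 0.00143). Adam19, a membrane metalloprotease, had 12 and 4 counts in the parental and 310 and 208 counts in the knockout libraries (log2 fold change 4.91, SE 0.39, edgeR adjusted p 1.24e-05). For all 3 of these proteases both knockout libraries lay above both parental ones. Tfpi, the inhibitor of the tissue factor pathway of clotting, fell from 27.4 and 23.6 CPM to 1.62 and 2.27 CPM (log2 fold change -3.72, SE 0.20, edgeR adjusted p 8.52e-07), with a similar value without TGF-β (-3.55). Plat, the tissue plasminogen activator, in a marked run of chromosome 8, fell by 0.61 with TGF-β and by more without it (-2.11; difference 1.501, edgeR adjusted p 0.000464).

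Among 17 tested integrin genes 3 were higher and 3 lower, against 6.82% and 11.1% of all genes. Itgb1, the beta-1 subunit shared by most collagen and fibronectin receptors, fell from 3134 and 3076 CPM in parental to 1262 and 1114 CPM in knockout cells (log2 fold change -1.39, SE 0.09, edgeR adjusted p 4.57e-06). It lies in a marked run of chromosome 8, whose 561 genes had a median of -0.57, and it was also lower without TGF-β (-1.04). Itgb6, of the integrin that activates latent TGF-β, fell from 33.5 and 33.8 CPM to 12.6 and 11.4 CPM (log2 fold change -1.48, SE 0.11, edgeR adjusted p 6.21e-06), but not without TGF-β, where it was 0.10 (difference -1.59, edgeR adjusted p 0.000402). Itga3, a laminin receptor subunit, was at -0.46 (SE 0.08) (edgeR adjusted p 0.00318). Itgav was at 0.57 (SE 0.11) (edgeR adjusted p 0.00501, 0.0549 without knockout replicate 1).

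**Figure D4:**
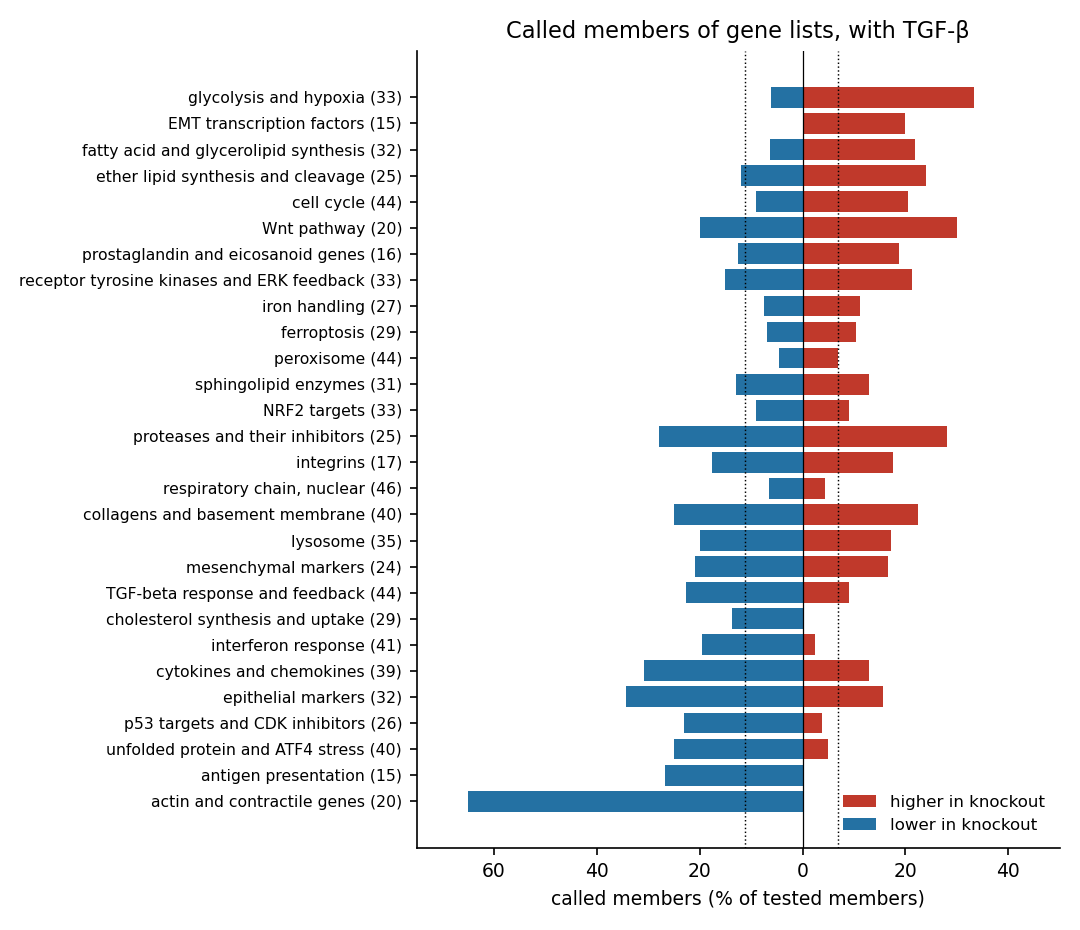
For each gene list with at least 10 tested members (number tested in parentheses), the percentage of members called higher (red, right) and lower (blue, left) in knockout cells with TGF-β. Dotted lines mark the shares over all genes, 6.82% higher and 11.1% lower. The contractile list reaches farthest to the left, with 13 of 20 lower, and the glycolysis and hypoxia list farthest to the right, with 11 of 33 higher.

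Ether lipid genes other than Agps moved in both directions. Over all genes 6.82% were called higher and 11.1% lower. Of 25 tested genes of ether lipid synthesis and cleavage, Agps included, 6 were higher and 3 lower, with a median of 0.03, and with 1 library left out 1 to 3 were higher and 1 to 3 lower. Gnpat, the enzyme before Agps, had 84.2 and 75.6 CPM in parental and 54.6 and 56.6 CPM in knockout cells (log2 fold change -0.52, SE 0.10, edgeR adjusted p 0.00315), lies in a marked run of chromosome 8 and lost its call without parental replicate 1 (edgeR adjusted p 0.0575). Far1, the fatty acyl-CoA reductase, was not called, at 178 and 179.7 CPM against 163 and 158 CPM (-0.16 (SE 0.08)). Mboat2, an acyltransferase that remodels phospholipids, rose from 20.7 and 20.2 CPM to 38.8 and 39.96 CPM (log2 fold change 0.95, SE 0.11, edgeR adjusted p 0.000187), and this was the only member apart from Agps whose call held in every alternative that was run.

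Of 44 tested peroxisome genes 3 were higher and 2 lower (median 0.07), a share below that over all genes. Nudt12, a peroxisomal NAD(P)H hydrolase, fell from 12.1 and 13.2 CPM to 4.95 and 4.27 CPM (log2 fold change -1.45, SE 0.15, edgeR adjusted p 8.66e-05). Pex7, the receptor that imports Agps into peroxisomes, was not called, at 10.5 and 11.3 CPM in parental and 13.6 and 13.7 CPM in knockout cells (0.33 (SE 0.17)). Of 29 cholesterol genes 0 were higher and 4 lower, and 2 of the lower ones lay outside the marked runs. Over all genes 6.82% were called higher and 11.1% lower. Ebp, a sterol isomerase in the marked run of chromosome X, fell from 54.4 and 55.1 CPM to 28.2 and 28.6 CPM (log2 fold change -0.95, SE 0.09, edgeR adjusted p 6.24e-05). Among 32 genes of fatty acid and glycerolipid synthesis 7 were higher and 2 lower, which became 2 to 4 higher and 0 to 1 lower with 1 library left out. Acacb, a mitochondrial acetyl-CoA carboxylase, rose from 1.85 and 1.85 CPM to 6.47 and 8.20 CPM (log2 fold change 1.98, SE 0.33, edgeR adjusted p 0.002). Scd2, a stearoyl-CoA desaturase, had 8436 and 9224 CPM against 12471 and 13587 CPM (log2 fold change 0.56 (SE 0.15), edgeR adjusted p 0.0253), a call that was lost when any 1 of the 4 libraries was left out (up to 0.178).

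Genes of ferroptosis, the iron-dependent cell death by lipid peroxidation, were called about as often as all genes. The list had 3 members higher and 2 lower of 29 tested, the iron list 3 and 2 of 27, and the list of targets of the antioxidant factor NRF2 3 and 3 of 33. These are 17.2%, 18.5% and 18.2% of the members, against 17.9% of all genes. In the iron list 2 members were higher and 1 lower of 22 outside the marked runs. Gpx4, which reduces lipid peroxides, had 33.1 and 41.6 CPM in parental and 32.8 and 36.3 CPM in knockout cells (-0.11 (SE 0.14) on the log2 scale), and 34.7% of its 50-base words are shared with another gene. The cystine transporter Slc7a11 was at 0.28 (SE 0.41), the acyl-CoA synthetase Acsl4 at 0.31 (SE 0.17) and the ubiquinone reductase Aifm2 at -0.05 (SE 0.12), and none of these was called. The transferrin receptor Tfrc, the ferritin heavy chain Fth1 and the iron exporter Slc40a1 were at -0.20 (SE 0.11), 0.22 (SE 0.10) and -0.16 (SE 0.10), also not called. Steap4, a metalloreductase in a marked run of chromosome 5, rose from 19.03 and 26.4 CPM to 163 and 155 CPM (log2 fold change 2.81, SE 0.22, edgeR adjusted p 1.32e-05), and Hpx, the heme carrier hemopexin, from 1.54 and 2.14 CPM to 6.77 and 8.76 CPM (log2 fold change 2.08, SE 0.27, edgeR adjusted p 0.000345). Among the NRF2 targets Mgst1, a membrane glutathione transferase, rose by 1.003 (SE 0.18) (edgeR adjusted p 0.00271) and Osgin1, in a marked run of chromosome 8, fell by 1.17 (edgeR adjusted p 0.000223).

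Glycolysis and hypoxia genes were more often higher than lower in the knockout cells, with 11 higher and 2 lower of 33 tested. The median was 0.24. Over all genes 6.82% were called higher and 11.1% lower. With 1 library left out 5 to 9 were higher. Pdk1, the kinase that restrains pyruvate oxidation, rose from 14.8 and 18.3 CPM in parental to 43.2 and 44.2 CPM in knockout cells (log2 fold change 1.40, SE 0.21, edgeR adjusted p 0.000892). Tpi1, triose phosphate isomerase, rose from 273.7 and 309.9 CPM to 445 and 501 CPM (log2 fold change 0.70, SE 0.11, edgeR adjusted p 0.00122) and Ldha, lactate dehydrogenase A, from 515 and 543 CPM to 736 and 794 CPM (log2 fold change 0.53, SE 0.09, edgeR adjusted p 0.00184). Bnip3, a mitophagy receptor, had 17 and 15 counts against 91 and 76 counts (log2 fold change 2.29, SE 0.37, edgeR adjusted p 0.00153). In all of these the lines did not overlap, as in every called gene named by rule. Egln1, an oxygen-sensing hydroxylase in a marked run of chromosome 8, fell by 0.58 (edgeR adjusted p 0.00292). Without TGF-β 11 members were higher and 1 lower (median 0.28). Of 46 nuclear-encoded respiratory chain genes 2 were higher and 3 lower, and 1 of the lower ones lay outside the marked runs. That is 10.9% called, against 17.9% of all genes. Their values were positive for 39 and negative for 7, with a median of 0.19 (0.05 without TGF-β). Their summed level was 4572 and 4452 CPM in the parental libraries and 4600 and 5364 CPM in knockout replicates 1 and 2.

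Cytokines and chemokines were more often lower than higher. Of 39 tested 12 were lower and 5 higher (median -0.28), or 5 to 7 and 2 to 3 with 1 library left out, and without TGF-β 17 were lower and 0 higher. Over all genes 11.1% were lower and 6.82% higher, and outside the marked runs 9 of 34 members were lower and 5 higher. The neutrophil attractant Cxcl1 fell from 102 and 69.8 CPM in parental to 25.03 and 26.1 CPM in knockout cells (log2 fold change -1.76, SE 0.20, edgeR adjusted p 0.000144) and Ccl20, which attracts lymphocytes and dendritic cells, from 13.9 and 15.97 CPM to 2.88 and 3.16 CPM (log2 fold change -2.30, SE 0.25, edgeR adjusted p 0.000111). Nrg1, a ligand of ERBB receptors in a marked run of chromosome 8, fell from 83.6 and 81.2 CPM to 32.1 and 30.3 CPM (log2 fold change -1.40, SE 0.13, edgeR adjusted p 4.75e-05), with no call without TGF-β (-0.16; difference -1.24, edgeR adjusted p 0.00603). Hgf, the ligand of the Met receptor, rose from 0.848 and 1.85 CPM to 18.3 and 17.8 CPM (log2 fold change 3.76, SE 0.27, edgeR adjusted p 1.42e-05). Ppbp, a platelet chemokine outside the list, was among the largest falls, from 57.8 and 51.1 CPM to 0.556 and 0.277 CPM (log2 fold change -6.99, SE 0.26, edgeR adjusted p 1.1e-07).

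Interferon response genes were called lower in 8 of 41 cases and higher in 1, with a median of -0.32. Antigen presentation genes were called lower in 4 of 15 cases and higher in 0. The shares of all genes were 11.1% lower and 6.82% higher, or 17.9% in either direction. In untreated cells 4 interferon genes were lower and 2 higher (median 0.02). For antigen presentation 1 gene was lower and 4 were higher without TGF-β (median 0.16). The difference between the conditions was called for 0 interferon genes and 1 antigen presentation gene. With 1 library left out 2 to 4 interferon genes were lower. The interferon-induced genes Samd9l and Ifit2 fell, Samd9l from 138 and 148 CPM to 80.8 and 69.9 CPM (log2 fold change -0.92, SE 0.10, edgeR adjusted p 9.53e-05) and Ifit2 from 48.5 and 52.3 CPM to 36.7 and 32.4 CPM (log2 fold change -0.54, SE 0.10, edgeR adjusted p 0.0033).

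Among Wnt pathway genes 6 were higher and 4 lower of 20 tested, against 6.82% and 11.1% of all genes. The ligand Wnt4 fell from 28.5 and 27.3 CPM in parental to 4.04 and 3.88 CPM in knockout cells (log2 fold change -2.81, SE 0.16, edgeR adjusted p 1.25e-06) and the ligand Wnt7a from 16.5 and 14.7 CPM to 2.83 and 1.66 CPM (log2 fold change -2.79, SE 0.25, edgeR adjusted p 3.2e-05). The receptor Fzd5 fell by 1.02 (edgeR adjusted p 0.00222), while the co-receptor Lrp5 was at 0.65 (SE 0.10) (edgeR adjusted p 0.000861). Downstream, the transcription factor Tcf7 rose from 3.23 and 2.86 CPM to 13.6 and 14.7 CPM (log2 fold change 2.21, SE 0.30, edgeR adjusted p 0.000551), and Apcdd1, an inhibitor of the pathway, by 0.95 (SE 0.16) (edgeR adjusted p 0.00199).

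Of 33 receptor tyrosine kinases and ERK feedback genes 7 were higher and 5 lower, against 6.82% and 11.1% of all genes. The members described here are all among the lower ones. Ddr2, a receptor for fibrillar collagen, fell from 40.8 and 44.7 CPM to 4.75 and 3.77 CPM (log2 fold change -3.32, SE 0.23, edgeR adjusted p 5.55e-06). It was not called without TGF-β, at 24.7 and 41.003 CPM in parental and 26.1 and 22.97 CPM in knockout cells, and the difference between the conditions was -2.90 (SE 0.31, edgeR adjusted p 0.000776). Fgfr2, a fibroblast growth factor receptor, fell by 0.63 (edgeR adjusted p 0.000668) and Spry1, a feedback inhibitor of these receptors, by 1.28 (edgeR adjusted p 0.00107).

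Cell cycle genes had 9 higher and 4 lower of 44 tested, with 3 to 6 higher with 1 library left out. Outside the marked runs 9 were higher and 1 lower of 40. Over all genes 6.82% were called higher and 11.1% lower. Top2a, the mitotic DNA topoisomerase, rose from 1002 and 1029 CPM to 1511 and 1439 CPM (log2 fold change 0.54, SE 0.08, edgeR adjusted p 0.00109), and the mitotic kinases Aurka and Aurkb were at 0.47 (SE 0.08) and 0.49 (SE 0.09) (edgeR adjusted p 0.00188 and 0.00304). Of 26 p53 targets and CDK inhibitors 6 were lower and 1 higher, so 26.9% were called against 17.9% of all genes. Perp, a desmosome-linked target of p53, fell from 29.5 and 36.6 CPM to 12.99 and 15.46 CPM (log2 fold change -1.22, SE 0.13, edgeR adjusted p 0.000108), Pmaip1, the pro-apoptotic NOXA, by 0.81 (edgeR adjusted p 0.000128) and the kinase Plk2 by 0.74 (edgeR adjusted p 0.00163). Perp and Pmaip1 were not called without TGF-β, and their difference between the conditions was -1.34 and -0.77 (edgeR adjusted p 0.00298 and 0.0102).

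Of 40 unfolded protein and ATF4 stress genes 10 were lower and 2 higher, and 7 of the lower ones lay outside the marked runs. Over all genes 11.1% were called lower and 6.82% higher. Slc7a5, a transporter of large amino acids, fell from 224 and 204 CPM to 76.0 and 94.7 CPM (log2 fold change -1.33, SE 0.15, edgeR adjusted p 0.000132), and Gdf15, a stress cytokine, by 1.18 (edgeR adjusted p 0.0018), both in marked runs of chromosome 8. Atf5, a stress transcription factor on chromosome 7, fell by 0.70 with TGF-β and was higher without it (0.54; difference -1.24, edgeR adjusted p 0.00505). Lysosome genes had 6 higher and 7 lower of 35, and 5 of the lower ones lay in marked runs, among them Lamp2 (-0.84 (SE 0.10)) and the transcription factor Tfe3 (-0.64 (SE 0.10)) on chromosome X and the proton pump subunit Atp6v0d1 (-0.95 (SE 0.10)) on chromosome 8. Gusb, the lysosomal beta-glucuronidase on chromosome 5, rose from 62.9 and 58.1 CPM to 117.3 and 119 CPM (log2 fold change 0.96, SE 0.09, edgeR adjusted p 4.87e-05). Sphingolipid enzymes had 4 higher and 4 lower of 31 (2 of the lower ones outside the marked runs), and prostaglandin genes 3 and 2 of 16. These are 25.8% and 31.25% of the members, against 17.9% of all genes. Ptgs1, a cyclooxygenase, rose from 185 and 179 CPM to 296 and 311 CPM (log2 fold change 0.74, SE 0.14, edgeR adjusted p 0.00422), opposite in sign to its value without TGF-β (-0.51; difference 1.25, edgeR adjusted p 0.00901).

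Markers of other cell types were read as levels summed over each list. Over all genes 17.9% were called. Immune markers summed to 65.7 and 67.4 CPM in the parental and 55.3 and 57.4 CPM in the knockout libraries, with Csf1r the 1 called of 6 tested (-1.70) and Adgre1, Cd3e and Tyrobp at 0 in all 4. Endothelial markers summed to 99.4 and 103.7 CPM against 39.4 and 34.1 CPM, with 2 of 4 tested called lower. Most of this was Cdh5, VE-cadherin, in a marked run of chromosome 8, at 75.6 and 75.6 CPM against 7.23 and 6.15 CPM (log2 fold change -3.49, SE 0.19, edgeR adjusted p 8.52e-07), while Tie1, Cldn5 and Emcn were at 0 in all 4 libraries. Fibroblast and pericyte markers summed to 295.6 and 309.4 CPM against 203.1 and 213.7 CPM, with 1 higher and 3 lower of 6 tested, Postn and Col1a1 among the lower, and with Dcn, Kcnj8 and Thy1 at 0. Adipocyte markers summed to 6.15 and 5.42 CPM against 7.58 and 8.76 CPM, with 1 higher of 4 tested and Plin1 and Cfd at 0. The part of other cell types in the matrix and cytokine differences was not tested.

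A few genes had almost no RNA in the knockout cells with TGF-β. Scara3, a scavenger receptor, had 343 and 303 counts in the parental libraries and 0 in both knockout libraries. Enpp5 had 157 and 139 counts against 0, and Gm10451 146 and 122 counts against 0. Taking 3 counts over both knockout libraries as the floor, these were at least 228-fold, 105-fold and 94.6-fold lower. Fgf13, an intracellular fibroblast growth factor homologue, had 327 and 357 counts against 1 and 0, and Ptprg, a receptor tyrosine phosphatase, 215 and 217 against 1 and 0. All 5 were also called lower without TGF-β. No tested gene met the reverse rule of at least 100 counts in both knockout libraries and at most 3 counts summed over both parental ones.

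Further large falls were those of enzymes, receptors and channels. Maoa, monoamine oxidase A, fell from 41.8 and 42.1 CPM in parental to 1.92 and 1.497 CPM in knockout cells (log2 fold change -4.60, SE 0.21, edgeR adjusted p 4.44e-07) and Il13ra1, a receptor of interleukin 13, from 26.2 and 23.7 CPM to 1.42 and 0.665 CPM (log2 fold change -4.56, SE 0.24, edgeR adjusted p 8.52e-07). Both lie in the marked run of chromosome X, whose median was -0.67, far smaller than their own change. Vat1l, in a marked run of chromosome 8, fell from 36.1 and 39.9 CPM to 1.37 and 2.11 CPM (log2 fold change -4.46, SE 0.21, edgeR adjusted p 4.44e-07), and Kcnj16, a potassium channel, from 7.95 and 9.47 CPM to 0.708 and 0.665 CPM (log2 fold change -3.65, SE 0.31, edgeR adjusted p 2.11e-05). Fhl1, a LIM protein of muscle, went from 7.53 and 8.58 CPM to 0.354 and 0.443 CPM (log2 fold change -4.32, SE 0.48, edgeR adjusted p 0.000138). Gm42047, in a marked run of chromosome 8, at -6.78, shares 64.8% of its 50-base words with another gene and is uncertain.

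The largest rises outside the lists included a plasma protein, transporters and enzymes. Orm1, an acute phase plasma protein, rose from 16.1 and 21.4 CPM to 129 and 141 CPM (log2 fold change 2.85, SE 0.15, edgeR adjusted p 8.52e-07), Abcc2, an organic anion exporter, from 2.23 and 3.10 CPM to 15.2 and 16.1 CPM (log2 fold change 2.56, SE 0.23, edgeR adjusted p 3.2e-05), and Ggt1, which breaks down extracellular glutathione, from 2.28 and 3.34 CPM to 15.52 and 17.5 CPM (log2 fold change 2.56, SE 0.23, edgeR adjusted p 3.38e-05). Gsto2, a glutathione transferase, rose from 3.50 and 2.74 CPM to 27.8 and 21.01 CPM (log2 fold change 2.96, SE 0.21, edgeR adjusted p 5.18e-06) and Sgsm1 from 1.01 and 1.91 CPM to 16.1 and 20.3 CPM (log2 fold change 3.66, SE 0.33, edgeR adjusted p 3.48e-05). The rule for the largest rises took only genes whose libraries did not overlap between the lines, so this separation was set by the selection. Ddc, the decarboxylase of aromatic amino acids, had 9 and 12 counts in parental and 85 and 87 counts in knockout cells (log2 fold change 2.93, SE 0.27, edgeR adjusted p 4.25e-05). A1cf had 1 count in each parental library and 17 and 15 in the knockout libraries, too few for a fold change.

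The knockout difference was then set beside the difference in untreated cells, which uses 4 other libraries. Without TGF-β 2000 genes (13.7%) were called, 691 higher (4.72%) and 1309 lower (8.94%). Of the 2618 genes called with TGF-β 1069 were also called without it, 1025 in the same direction and 44 in the opposite one. The 1025 were 39.2% of the calls with TGF-β and 51.3% of those without. Outside the marked runs 596 genes were called in the same direction, 29.4% and 42.5% of the calls, and inside them, where the runs had been chosen on the untreated libraries, 429, or 73.0% and 71.6%. Of the 1549 genes called with TGF-β and not without it, 162 also had a called difference between the conditions, so for the other members of that set a difference was not shown.

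The test of the difference itself called 352 genes (2.40%), 183 with a more positive and 169 with a more negative knockout value under TGF-β. This count fell to 110 and 131 without parental replicate 1 and 2 of the TGF-β libraries, and to 161 and 114 without knockout replicate 1 and 2. Aldh1a1, a retinaldehyde dehydrogenase, was at 28.4 and 30.4 CPM in parental and 2.98 and 3.49 CPM in knockout cells with TGF-β (log2 fold change -3.18, SE 0.15, edgeR adjusted p 4.44e-07). Untreated it was at 98.4 and 121 CPM and 109.6 and 108 CPM, and the difference was -3.18 (SE 0.19, edgeR adjusted p 3.62e-05). Csf1r, the macrophage colony stimulating factor receptor, had 21.6 and 23.1 CPM against 7.28 and 6.43 CPM with TGF-β and 31.3 and 30.6 CPM against 29.6 and 31.1 CPM without it (difference -1.67, edgeR adjusted p 0.000555). In both genes the untreated libraries of the lines lay close together and those with TGF-β did not.

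F13a1, the catalytic chain of clotting factor XIII, was higher in the knockout cells with TGF-β and had a negative value without it. With TGF-β it had 19.3 and 21.7 CPM in parental and 69.7 and 74.2 CPM in knockout cells (log2 fold change 1.81, SE 0.17, edgeR adjusted p 3.78e-05), and untreated 1.05 and 0.469 CPM and 0.0483 and 0.278 CPM, near the floor. Megf6 and Timd2 were lower with TGF-β (-2.20 (SE 0.16) and -2.18 (SE 0.18)) and had positive values without it (0.91 and 0.87), with differences of -3.12 and -3.05 (edgeR adjusted p 0.0017 and 0.000118). Sprr1b, a cornified envelope protein in a marked run of chromosome 3, was lower in the knockout cells in both conditions, at 131 and 133 CPM against 11.98 and 11.6 CPM with TGF-β and 106 and 59.98 CPM against 1.01 and 1.30 CPM without it (difference 2.67, edgeR adjusted p 0.00541). Agps itself was lower in both, by less with TGF-β (-2.74) than without it (-3.47; difference 0.73, edgeR adjusted p 0.0332).

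**Figure D5:**
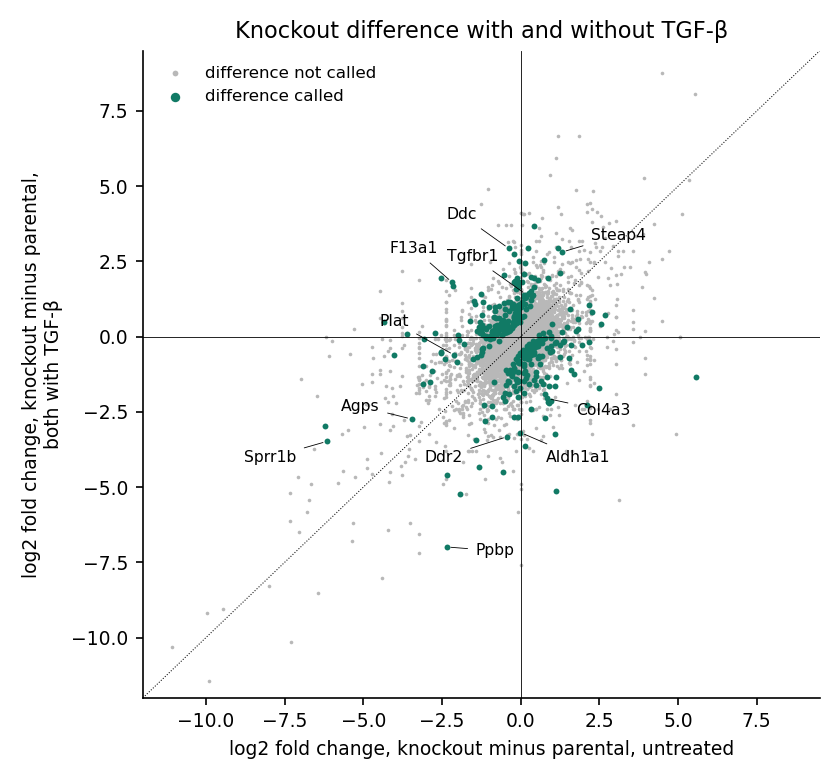
Log2 fold change, knockout minus parental, without TGF-β (horizontal) and with it (vertical) for the 14641 genes. Green points are the 352 genes with a called difference between the conditions, and the dotted line marks equal values. Col4a3 and Aldh1a1 lie at -2.05 and -3.18 with TGF-β and at 0.84 and -0.01 without it.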

How the data were processed

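Polyadenylated RNA of 8 libraries was sequenced. The submitters' processing notes name STAR 2.7.1a for alignment to GRCm38 and featureCounts 1.6.2 for counting. The deposited files hold raw counts per gene for 55450 identifiers, all found in GENCODE M21. No source used here states the annotation release or whether counting kept strand. A deposited normalized table (DESeq2 1.26.0, per the same notes) was not used.

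The filter was filterByExpr at a minimum count of 10 and kept 14641 genes. The 8 libraries were fitted together by edgeR 4.0.16 (quasi-likelihood, R 4.3.3, TMM scaling, 4 groups, 4 residual degrees of freedom), tested on simulated data. P-values were adjusted by Benjamini-Hochberg over all genes in each contrast. Standard errors derive from the F statistic. Alternatives were other scalings and filters, DESeq2 1.42.0, limma 3.58.1 voom, a replicate block, 4 libraries alone, each library left out, and the fit without the marked runs.

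The members and the 35 lists were chosen with earlier results of these data known. The text draws on 203 genes named by rule: Agps, the 12 largest rises and falls (average log2 CPM of at least 3, libraries not overlapping), genes almost without counts in 1 line, up to 6 called members per list, the 6 largest differences between conditions in each direction, and fixed key genes (1 more is not reported here and not counted). Of these 186 were called, 118 in every alternative. Other list members are named as examples chosen after their values were seen.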

Additional observations from a re-analysis of the deposited data

Results flagged for a closer look

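The genes below are those for which the knockout difference with TGF-β departed from the difference without it, by the test of the difference itself (edgeR adjusted p under 0.05, over all genes) among the genes named here. Each value is the log2 fold change, knockout minus parental, with TGF-β minus that without it. No cause was tested.

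Some of these genes were lower in the knockout cells with TGF-β and had a positive value without it. The difference was -3.12 for Megf6, -3.05 for Timd2, -2.89 for Col4a3, -2.55 for Col4a4, -2.19 for Lcn2 and -2.11 for Cnn1. It was -1.59 for Itgb6, -1.54 for Fst, -1.34 for Perp, -1.24 for Atf5, -0.90 for Fgfr2, -0.72 for Cdh2 and -0.70 for Erap1. Those with negative values in both conditions, and larger ones with TGF-β, had differences of -4.64 for Ppbp, -3.31 for Slc13a2os, -3.18 for Aldh1a1, -2.98 for Fhl1, -2.90 for Ddr2, -2.26 for Maoa and -1.69 for Wnt4. The same held for Csf1r at -1.67, Ccl20 at -1.38, Nrg1 at -1.24, Tpm1 at -0.85, Pmaip1 at -0.77 and Krt7 at -0.65. Untreated values were near 0 for Aldh1a1, Csf1r and Pmaip1, and small for Nrg1 (-0.16) and Tpm1 (-0.20). Ugt2b36, a glucuronosyltransferase, was at -3.93, a fitted value that rests on 1 and 1 counts in the knockout libraries with TGF-β. St3gal5, a sialyltransferase, was higher in the knockout cells in both conditions, by less with TGF-β (-1.44).

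The opposite sign was found for genes that were higher with TGF-β and had a negative value without it. The difference was 3.99 for F13a1, 3.32 for Ddc, 2.68 for Mmp10, 1.69 for Areg, 1.25 for Ptgs1, 1.16 for Apcdd1, 0.74 for Cebpb and 0.52 for F11r. For F13a1 the untreated levels were near the floor in both lines. Krt8, called lower without TGF-β and not called with it, was at 0.65. Genes with positive values in both conditions, and larger ones with TGF-β, were Ffar4 at 2.72, Hpx at 1.96, Ggt1 at 1.83, Gsto2 at 1.79, Steap4 at 1.497, Tgfbr1 at 1.22, Hmga2 at 0.97 and Lrp5 at 0.59. Untreated values were small for Ffar4 (0.23), Tgfbr1 (0.18), Hpx (0.12) and Lrp5 (0.06). Genes lower in both conditions, and less so with TGF-β, were Cd93 at 3.41, Sprr1b at 2.67, Plat at 1.501, Agps at 0.73 and Me1 at 0.66.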

How the results depend on the processing

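With 1 library left out, 1169 to 2910 genes were called with TGF-β, 1442 to 1818 without it and 110 to 401 for the difference. The low values with TGF-β came from leaving out 1 of its own 4 libraries. A filter of 1 count gave 855 calls of the difference. The fit on 4 libraries alone gave 3626 calls with TGF-β and 1108 without it, and the fit without the marked runs 1840 and 1255. Under the scalings (RLE, upper quartile, library totals) 2622 to 2657 genes were called with TGF-β, DESeq2 called 2228 and voom 2585. The replicate numbers do not pair the samples by any label, and with 2 numbers their deviations cannot show it. These correlated at 0.02 between the 2 groups with TGF-β, 0.31 between the untreated groups, 0.15 between the knockout groups and 0.03 to 0.08 between the others. On the labels, the counts of the report come from a fit without a block. With the replicate block 3305 genes were called with TGF-β, 2659 without it and 679 for the difference.

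Of the 203 named values with TGF-β, 147 to 161 kept both their sign and their side of the threshold when 1 library with TGF-β was left out. DESeq2 lost 7 calls, voom 4, library totals 1 and the 1-count filter 2. The 1-count filter also gained 2 calls and the fit on 4 libraries alone gained 1. Signs turned only for genes that were not called. With 1 library with TGF-β left out Gpx4 ran from -0.27 to 0.060, Smad7 from -0.26 to 0.18 and Zeb2 from -0.29 to 0.18 on the log2 scale. With 1 library left in a group, that library was assumed to vary like the other groups. Genes with few counts in 1 line are limited by depth.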
